A study of Mus musculus with 24 samples.

Results

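Pulmonary fibroblasts labelled TLR4-/- were cultured for 24 h with PBS or with 1 μg/ml recombinant mouse CIRP (rmCIRP). The 3 libraries of each treatment, 6 of the 24 in the series, were chosen by these labels alone and are compared here over all expressed genes. All mice were C57BL/6 or on that background. The cells of a group came from a pool of 3 to 4 lungs of mice aged 4 to 8 weeks, were grown to passages 3 to 6 and were kept in reduced serum medium overnight before treatment. Further libraries serve as comparison, from WT cells given the same treatments, and cells labelled TLR4-/- given recombinant mouse TGF-β1 (rmTGF-β1, 2 ng/ml) alone or with rmCIRP. Nothing says that the replicate libraries came from separate cultures or animals, so p-values measure only the spread between these libraries, which may be technical.

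TLR4 is the receptor of immune and stromal cells that recognizes bacterial lipopolysaccharide. It does so together with MD2, the product of Ly96, and with the coreceptor CD14. Its adaptors MyD88 and TRIF pass the signal to NF-κB, which drives cytokine and chemokine genes, and to IRF3, which drives type I interferon and through it the interferon-stimulated genes. CIRP is a cold-inducible RNA-binding protein that is released from cells in sepsis and is known as a ligand of the TLR4 and MD2 complex. The comparison asks what is left of the response to rmCIRP in cells labelled TLR4-/-.

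The libraries held 31628081 to 35651924 reads counted on genes, and 16258 genes passed the filter on low counts. Levels are given as normalized counts, each count divided by the library's size factor from DESeq2. All 13 fibroblast markers had over 3 counts in every library, with a summed level of 570400 to 632400 normalized counts with PBS and 584300 to 637200 with rmCIRP. All 16 macrophage markers did too, with sums of 346600 to 396300 and 334500 to 380000, against 90700 to 98790 in WT cells with PBS. The treatments overlapped in both sums. The macrophage sum was higher than in WT cells; in bulk RNA, more macrophages and more of these RNAs per cell cannot be told apart, and its part in the differences between the genotypes was not tested. Of 7 endothelial markers 6 had over 3 counts in every library, with sums of 735.4 to 818 with PBS and 694.1 to 711.7 with rmCIRP, which did not overlap. All 5 mural and all 4 mesothelial markers had over 3 counts, with mural sums of 26670 to 28540 and 27420 to 29380 and mesothelial sums of 562.5 to 688.8 and 585.9 to 647.8. Epithelial sums were 109.1 to 140.3 with PBS and 84.45 to 108.1 with rmCIRP and did not overlap, with 1 of the 8 markers, Cdh1, averaging 50 or more. Neutrophil sums were 138.3 to 176.2 and 141.1 to 177, with 1 of the 6 markers, S100a8, averaging 50 or more, and lymphocyte sums were at most 12.94. The part of endothelial and epithelial cells in the values was not tested. Cd3e, S100a9, Ly6g and Scgb1a1, defining markers of lymphocytes, neutrophils and airway epithelium, had at most 3 counts in each of the 6 libraries.

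The mRNA of the targeted gene was not lower in the libraries labelled TLR4-/-. Tlr4 had 926.7, 892.3 and 891 normalized counts with PBS and 940.9, 858.4 and 908.3 with rmCIRP. WT libraries had 718, 801.7 and 757.7 with PBS and 771.4, 725.3 and 762.6 with rmCIRP. All 6 libraries labelled TLR4-/- thus lay above all 6 WT libraries. Reads were thus counted on the gene in every one of these libraries. Counts per gene do not show which part of it the reads came from, so they cannot show whether a part is missing. TLR4-/- is used as the label gives it. Between rmCIRP and PBS, Tlr4 was bounded from 0.925-fold to 1.09-fold.

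At an adjusted p under 0.1 (quasi-likelihood test of edgeR, Benjamini-Hochberg adjusted), 0 of 16258 genes (0%) changed with rmCIRP in the libraries labelled TLR4-/-, and the lowest adjusted p was 0.104. At an unadjusted p under 0.05 there were 1136 genes (6.99%), 560 with higher (3.44%) and 576 with lower levels (3.54%) after rmCIRP. In WT cells the same test called 7130 genes (43.9%), 3212 higher (19.8%) and 3918 lower (24.1%), and 50.8% of genes had libraries that did not overlap, against 13.7% here. The TLR4-/- minus WT difference of the response was called for 5113 genes (31.4%), 2333 with a lower (14.3%) and 2780 with a higher response (17.1%) in the libraries labelled TLR4-/-. The count of 0 depends on the method, since DESeq2 called 33 genes, a fit of only these 6 libraries 29 and a fit with no filter on low counts 149. It was 9 without the rmCIRP library 3, 1 without the PBS library 1 and 0 without any other of the 6 libraries.

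Libraries of the 2 treatments differed little more than replicates did. Over well counted genes, those averaging 100 or more normalized counts in the 6 libraries, the median size of the log2 ratio was 0.0538 to 0.0775 for pairs within PBS, 0.0566 to 0.0684 within rmCIRP and 0.0533 to 0.0885 between them. In WT cells it was 0.0599 to 0.0694 within treatments and 0.134 to 0.164 between them. The median size of the fitted change over the 11325 well counted genes was 0.046 on the log2 scale, against 0.138 in WT cells. Only 11 of these genes differed by 1.5-fold or more between rmCIRP and PBS, and 3 by 2-fold or more, against 1061 and 434 in WT cells. The 3 were the noncoding RNA Bc1, the short locus Gm23935 and Scand1. The other 8 were Gm15564, Mir6236, Mir703, Lars2, Gm24187, H2aj and the interferon-stimulated genes Ifit3 and Rsad2.

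How far a change could be bounded depended on how well a gene was counted. The bounds given are 95% intervals of the log2 fold change of 1 gene, from its standard error and the t distribution, and the margin is the distance from the estimate to either end. The median margin was 0.99 for genes under 10 normalized counts, 0.59 from 10 to 50, 0.35 from 50 to 100, 0.17 from 100 to 1000 and 0.097 from 1000 to 10000. The interval lay wholly within a 2-fold change in either direction for 13.8% of genes under 10 normalized counts, 73% of those from 10 to 50 and 99.5% of those from 100 to 1000. It lay within 1.5-fold for 15.2% of genes from 10 to 50 and 97.2% of those from 100 to 1000.

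**Figure D1:**
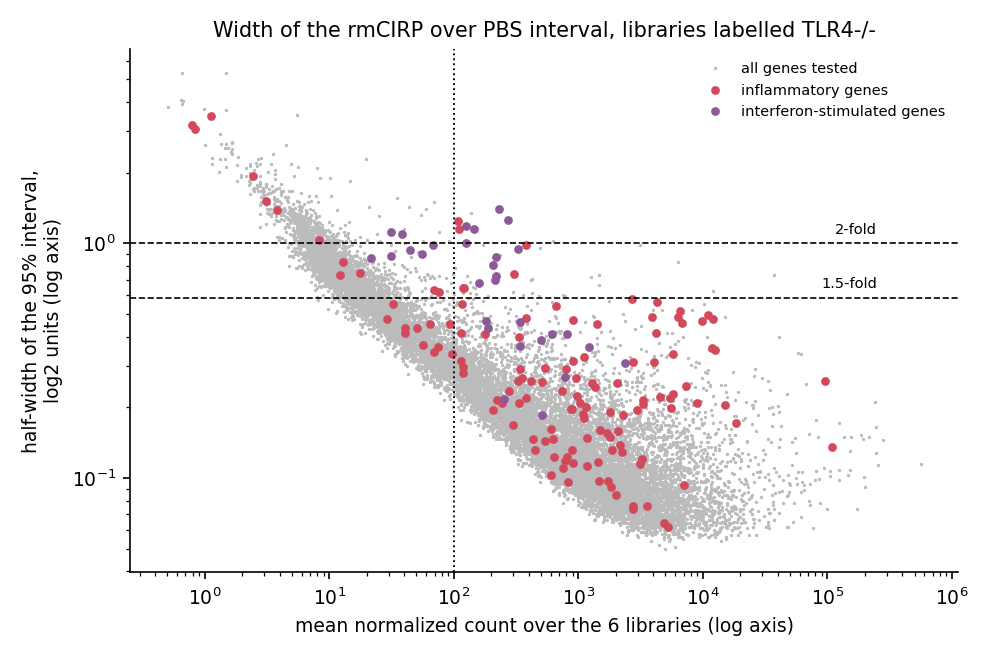
Margin of the 95% interval of the rmCIRP over PBS log2 fold change (distance from the estimate to either end, vertical) against the mean normalized count over the 6 libraries labelled TLR4-/- (horizontal), both on log axes, for all genes tested, inflammatory genes and interferon-stimulated genes. The dotted line marks 100 normalized counts and the dashed lines margins of 2-fold and 1.5-fold, and the median margin of the 23 well counted interferon-stimulated genes, 0.47, is above that of all genes from 100 to 1000 normalized counts, 0.17.

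The 7 lists of inflammatory genes, from the receptor complex to the effectors, held 170 genes, of which 165 were tested and 133 were well counted. Of the 165, 0 passed the threshold. At an unadjusted p under 0.05 there were 3, Tnip2 with higher and Irak4 and Ticam1 with lower levels, a smaller share than the 6.99% of all genes. Spread in the other conditions enters these tests. The median log2 fold change of the 165 was 0.001, equal to that of all genes tested. All rmCIRP libraries lay above the PBS libraries in 4 genes and below them in 5, against 5.81% and 7.91% of all genes tested.

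Of the 133 well counted inflammatory genes, 130 had an interval that held 0, 119 had one within 2-fold and 107 one within 1.5-fold. Of all 11325 well counted genes, 11293 had an interval within 2-fold and 11147 within 1.5-fold. In the fit of all 24 libraries the inflammatory genes were thus bounded less tightly, with a median margin of 0.246 against 0.126. Spread in the other conditions enters these margins. With only the 6 libraries fitted, the median margin of the inflammatory genes was 0.14. In WT cells 137 of the 165 rose and 7 fell, against 19.8% and 24.1% of all genes. The median log2 fold change of the 165 there was 1.66, against -0.022 over all genes. Of the 108 well counted ones that rose there, 89 had an upper bound below a 1.5-fold rise in the libraries labelled TLR4-/-. The rise in WT cells was at least 2-fold for 75 genes. For 74 of the 75 the interval of the libraries labelled TLR4-/- lay wholly below the WT interval, the exception being Il33, and for 65 it ended below a 2-fold rise. The difference between the genotypes was called for 102 of the 108, with the lower response in the libraries labelled TLR4-/-. It was called in that direction for 1752 of all 2570 well counted genes that rose in WT cells. Both sets were chosen by that rise, which favours such a call.

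**Figure D2:**
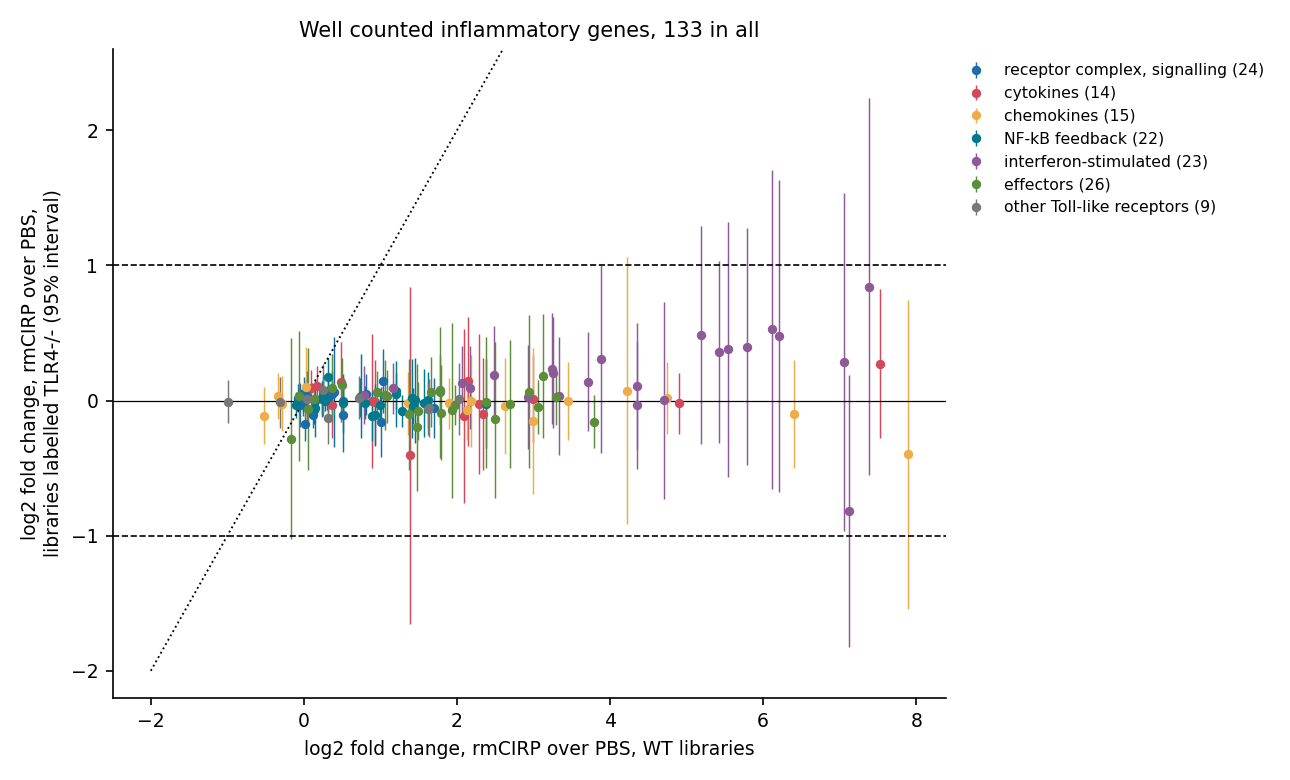
Log2 fold change of rmCIRP over PBS in the libraries labelled TLR4-/- (vertical, with 95% intervals) against the same change in WT libraries (horizontal) for the 133 well counted inflammatory genes, coloured by list. The dashed lines mark 2-fold and the dotted line an equal change in both genotypes, and the points reach 7.89 in WT cells but stay between -0.82 and 0.84 in the libraries labelled TLR4-/-.

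The κB site, a short DNA sequence that NF-κB binds, lies in front of many inflammatory genes. Its 10-base consensus, searched on both strands in the 300 bases from 250 before to 50 after the start of transcription, was in 31 of the 125 list genes that RefSeq's promoter table holds (24.8%), against 6.55% of all 27025 gene symbols in it, a symbol being counted when any of its promoters matched, and 5.8% of all 32851 promoters. The 110 bases before the start are printed for 5 well counted genes with a match there, picked after their values were seen, because all 5 rose in WT cells. Capitals mark the match, and coordinates are on GRCm38.p6: Cxcl1 (chr5:90891135-90891244, plus strand), Cxcl2 (chr5:90903789-90903898, plus strand), Il6 (chr5:30013004-30013113, plus strand), Nfkbia (chr12:55492648-55492757, minus strand) and Tnfaip3 (chr10:19015411-19015520, minus strand).
Cxcl1: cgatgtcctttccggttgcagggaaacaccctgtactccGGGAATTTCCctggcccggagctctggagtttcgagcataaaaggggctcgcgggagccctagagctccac
Cxcl2: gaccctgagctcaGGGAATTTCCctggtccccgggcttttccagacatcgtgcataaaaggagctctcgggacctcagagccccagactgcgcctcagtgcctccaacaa
Il6: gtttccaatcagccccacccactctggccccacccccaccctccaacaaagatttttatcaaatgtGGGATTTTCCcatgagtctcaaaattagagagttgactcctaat
Nfkbia: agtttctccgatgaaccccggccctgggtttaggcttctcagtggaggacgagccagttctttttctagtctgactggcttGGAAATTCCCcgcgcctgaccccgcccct
Tnfaip3: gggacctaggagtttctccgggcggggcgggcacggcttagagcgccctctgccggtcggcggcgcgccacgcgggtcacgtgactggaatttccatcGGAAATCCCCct

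Cxcl1 and Cxcl2 encode chemokines that attract neutrophils, Nfkbia the inhibitor IκBα and Tnfaip3 the deubiquitinase A20, the last 2 being targets and brakes of NF-κB. In WT cells rmCIRP raised them by 4.22 for Cxcl1, 6.41 for Cxcl2, 2.14 for Il6, 1.62 for Nfkbia and 2.38 for Tnfaip3 on the log2 scale. For the libraries labelled TLR4-/- the corresponding log2 values were 0.074, -0.10, 0.14, 0.003 and -0.023 in the same order, and 0 of the 5 passed the threshold. Nfkbia had 3376, 3326 and 3190 normalized counts with PBS and 3370, 3121 and 3380 with rmCIRP, and its interval of 0.869-fold to 1.16-fold was the narrowest of the 5. Cxcl1 had 499.9, 319 and 286.7 with PBS and 333.3, 436.2 and 390.3 with rmCIRP, the PBS library 1 being the highest of the 6. Its interval ran from 0.531-fold to 2.08-fold, so a 2-fold rise of Cxcl1 lay inside it. The genotypes differed by -4.15 ± 0.60 for Cxcl1, -6.51 ± 0.27 for Cxcl2, -1.61 ± 0.14 for Nfkbia and -2.41 ± 0.22 for Tnfaip3. A match describes the sequence and does not show that NF-κB was bound.

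The receptor complex and its proximal signalling genes were bounded about as tightly as all well counted genes. Their median margin was 0.116, against 0.126. All 24 were well counted, and all 24 intervals lay within 1.5-fold, as did 11147 of all 11325 well counted genes. The bounds of the 24 reached from 0.75-fold to 1.39-fold. In WT cells 14 of the 24 rose and 1 fell, against 19.8% and 24.1% of all genes. Ly96 had 294.4, 277.6 and 314.6 normalized counts with PBS and 280.2, 307.2 and 313.6 with rmCIRP, and the treatments overlapped. Its log2 fold change was 0.028 ± 0.081 (SE, n = 3 and 3; edgeR adjusted p = 0.986), with bounds from 0.908-fold to 1.15-fold. In WT cells Ly96 rose by 0.31 ± 0.081 (edgeR adjusted p = 0.00395), and the genotypes differed by -0.28 ± 0.11 (edgeR adjusted p = 0.0757).

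Irak4, a kinase recruited through MyD88, had 657, 664.4 and 698.8 normalized counts with PBS and 600.7, 565.2 and 620.3 with rmCIRP. All 3 rmCIRP libraries lay below the PBS libraries, and the log2 fold change of -0.17 ± 0.059 did not pass the threshold (edgeR adjusted p = 0.5). Ticam1, which encodes TRIF, had 848.6, 844.6 and 858.1 with PBS and 774.7, 778.6 and 803.2 with rmCIRP, again with no overlap. Its value was -0.11 ± 0.046 (edgeR adjusted p = 0.652), against 0.12 ± 0.046 in WT cells, and the genotypes differed by -0.23 ± 0.065 (edgeR adjusted p = 0.0115). Map3k8, a kinase upstream of ERK, had the largest positive value of the list, 0.14 ± 0.11. Chuk, a subunit of the IκB kinase, had the narrowest interval, 0.957-fold to 1.04-fold. The adaptor gene Myd88, at 1133 to 1193 normalized counts, was bounded from 0.925-fold to 1.08-fold and rose by 0.51 ± 0.054 in WT cells.

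Tnf, which encodes TNF-α, showed the tightest bound of the 3 cytokine genes the study plotted. It had 977, 1009 and 966.6 normalized counts with PBS and 1018, 901.1 and 980.1 with rmCIRP. The treatments overlapped, and the rmCIRP libraries held both the highest and the lowest value. The log2 fold change was -0.021 ± 0.11 (edgeR adjusted p = 0.993), with bounds from 0.845-fold to 1.15-fold. WT cells went from 233.9 to 291.4 with PBS to 7474 to 8696 with rmCIRP, a rise of 4.91 ± 0.12. The level of the libraries labelled TLR4-/- thus lay between those of WT cells without and with rmCIRP. The genotypes differed by -4.93 ± 0.16 (edgeR adjusted p = 1.21e-15).

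Il1b, which encodes IL-1β, was less well counted, with 74.09, 79.48 and 64.71 normalized counts with PBS and 50.14, 57.54 and 60.95 with rmCIRP. All 3 rmCIRP libraries lay below the PBS libraries. The log2 fold change of -0.36 ± 0.22 did not pass the threshold (edgeR adjusted p = 0.802), and its interval of 0.569-fold to 1.06-fold holds a 1.5-fold fall and does not reach a 1.5-fold rise. WT cells went from 13.98 to 21.86 with PBS to 15500 to 16810 with rmCIRP, a rise of 9.87 ± 0.29. The genotypes differed by -10.23 ± 0.36 (edgeR adjusted p = 1.21e-15).

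Il6 was abundant without any stimulus, with 13450, 11550 and 9290 normalized counts with PBS and 11880, 12790 and 13070 with rmCIRP. The PBS libraries spread more widely and held both the highest and the lowest value. The log2 fold change was 0.14 ± 0.23 (edgeR adjusted p = 0.966), with bounds from 0.794-fold to 1.54-fold. WT cells went from a like level, 10380 to 15630, to 51100 to 59860, a rise of 2.14 ± 0.23. The genotypes differed by -1.99 ± 0.32 (edgeR adjusted p = 9.7e-05).

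**Figure D3:**
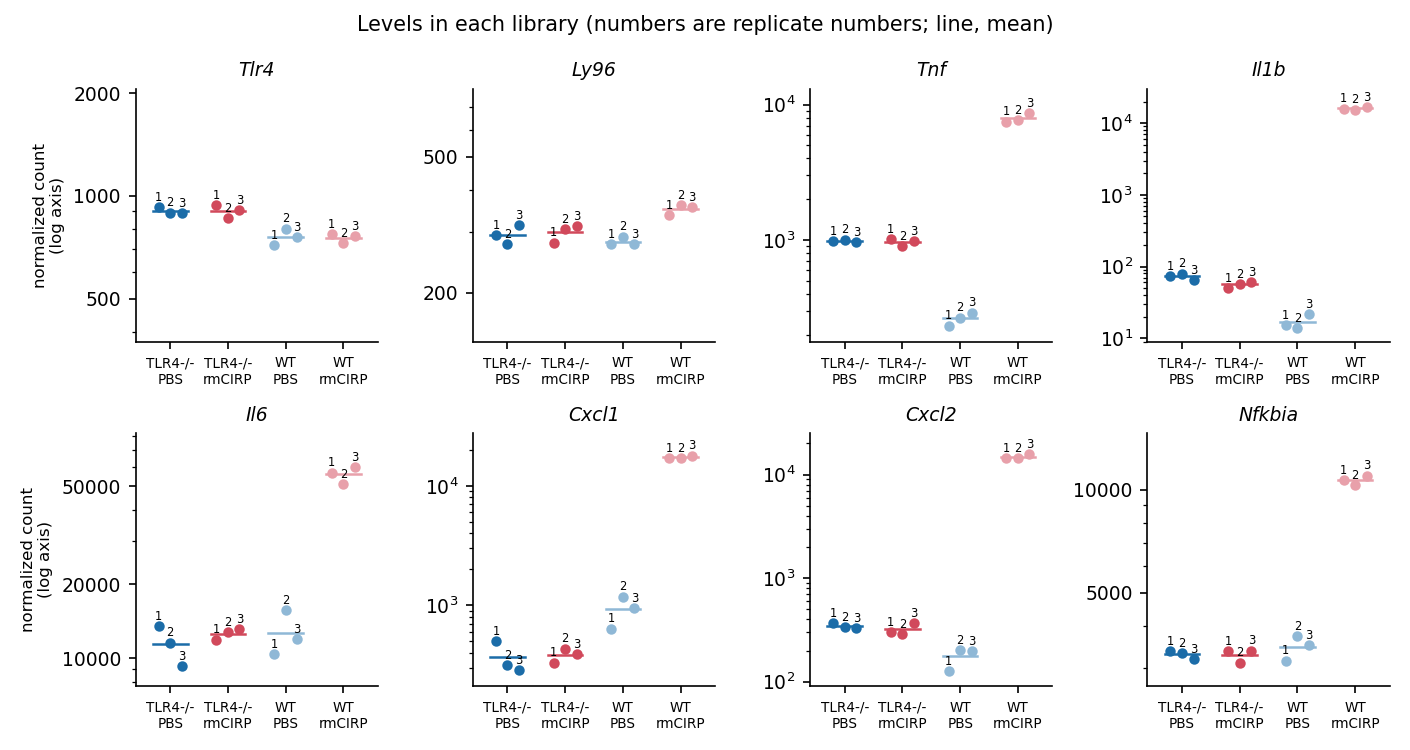
Normalized counts on log axes of 8 genes of the TLR4 pathway in each library labelled TLR4-/- or WT, with PBS or rmCIRP; numbers are replicate numbers and lines are means. In the libraries labelled TLR4-/- the treatments overlap in 7 of the genes and all 3 rmCIRP libraries are lower for Il1b, whereas Tnf reaches 8696 in WT cells with rmCIRP.

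Of 24 cytokine genes, 22 were tested and 14 were well counted. Of the 22, 0 passed the threshold, and 20 rose in WT cells, against 19.8% of all genes. The median log2 fold change was 2.32 in WT cells and -0.008 in the libraries labelled TLR4-/-. Among the well counted ones 13 intervals lay within 2-fold and 10 within 1.5-fold. Il1a, which encodes IL-1α, had 108.7, 100.7 and 105.5 normalized counts with PBS and 147.5, 107.7 and 124.8 with rmCIRP. The treatments overlapped, and its value of 0.27 ± 0.27 (edgeR adjusted p = 0.921) was the largest positive one of the list, with bounds from 0.824-fold to 1.77-fold. In WT cells Il1a rose by 7.53 ± 0.30, and the genotypes differed by -7.25 ± 0.40. Il33, an alarm cytokine, had the most negative value, -0.41 ± 0.60, and an interval of 0.317-fold to 1.79-fold, its rmCIRP libraries spreading over 64.03 to 131.7. Csf1, the growth factor of macrophages, was bounded most tightly, with 100400, 111700 and 103900 with PBS, 110000, 118700 and 106200 with rmCIRP and an interval of 0.97-fold to 1.17-fold. The untested Il12a and Ifnb1 had at most 2 counts in any of the 6 libraries.

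Of 25 chemokine genes, 24 were tested and 15 were well counted. Again 0 passed the threshold, whereas 19 rose and 3 fell in WT cells, against 19.8% and 24.1% of all genes. The median log2 fold change was -0.032, against 2.82 in WT cells. Among the well counted ones 13 intervals lay within 2-fold, the exceptions being Cxcl1 and Cxcl10, and 12 within 1.5-fold. Cx3cl1, the chemokine fractalkine, had the largest positive value, 0.10 ± 0.14. Cxcl12, the ligand of CXCR4, had 18520, 18940 and 17690 normalized counts with PBS and 18380, 18860 and 18980 with rmCIRP, and its interval of 0.908-fold to 1.15-fold was the narrowest. Cxcl12 fell by 0.34 on the log2 scale in WT cells.

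Of the 24 NF-κB subunits, inhibitors and feedback genes, 22 were well counted. All 22 intervals lay within 1.5-fold, between 0.784-fold and 1.27-fold. Intervals within 1.5-fold were found for 11147 of all 11325 well counted genes too. In WT cells 22 of the 24 rose, against 19.8% of all genes, while 0 of the 24 passed the threshold here. Rela, which encodes the p65 subunit, had 2687, 2676 and 2877 normalized counts with PBS, 2754, 2745 and 2700 with rmCIRP and the narrowest interval, 0.949-fold to 1.05-fold. Relb had the most negative value, -0.12 ± 0.087. Tnip2, which encodes an A20-binding inhibitor, had 550.3, 570.1 and 653 with PBS and 669.5, 664.5 and 655.7 with rmCIRP. Its rmCIRP libraries lay above the PBS libraries, the PBS library 3 just below them, and the value of 0.17 ± 0.071 did not pass the threshold (edgeR adjusted p = 0.623). Tnip2 rose by 0.32 ± 0.073 in WT cells.

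The interferon-stimulated genes were less tightly bounded. The rmCIRP library 2 stood apart over the list, and the PBS library 3 only in some of its genes. Of the 30 genes, 22 had their highest level of the 6 libraries in the rmCIRP library 2 and 6 in the PBS library 3. Their summed level was 10870, 8498 and 10890 normalized counts with PBS and 8753, 15620 and 9319 with rmCIRP. WT cells had 7969 to 8387 with PBS and 94640 to 136800 with rmCIRP. The libraries labelled TLR4-/- thus stayed far below WT cells with rmCIRP in every case. The rmTGF-β1 library 2 was high as well, at 15290. No batch or date in the labels groups these libraries.

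Ifit1, an antiviral effector, had 145.2, 114.4 and 485.8 normalized counts with PBS and 130.8, 645 and 121.9 with rmCIRP. Ifit3, which acts with it, had 104.7, 71 and 326.5 with PBS and 99.3, 684 and 108.1 with rmCIRP. In both genes the treatments overlapped, and the PBS library 3 and the rmCIRP library 2 were the high ones. Rsad2, which encodes viperin, had 71.13, 78.42 and 335.5 with PBS and 57.02, 142.9 and 72.75 with rmCIRP. Cxcl10, a chemokine induced by interferon, had 70.14, 57.22 and 252.9 with PBS and 48.17, 182.8 and 54.07 with rmCIRP. The same 2 libraries were the highest of their treatment, with the PBS library 3 above the rmCIRP library 2.

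**Figure D4:**
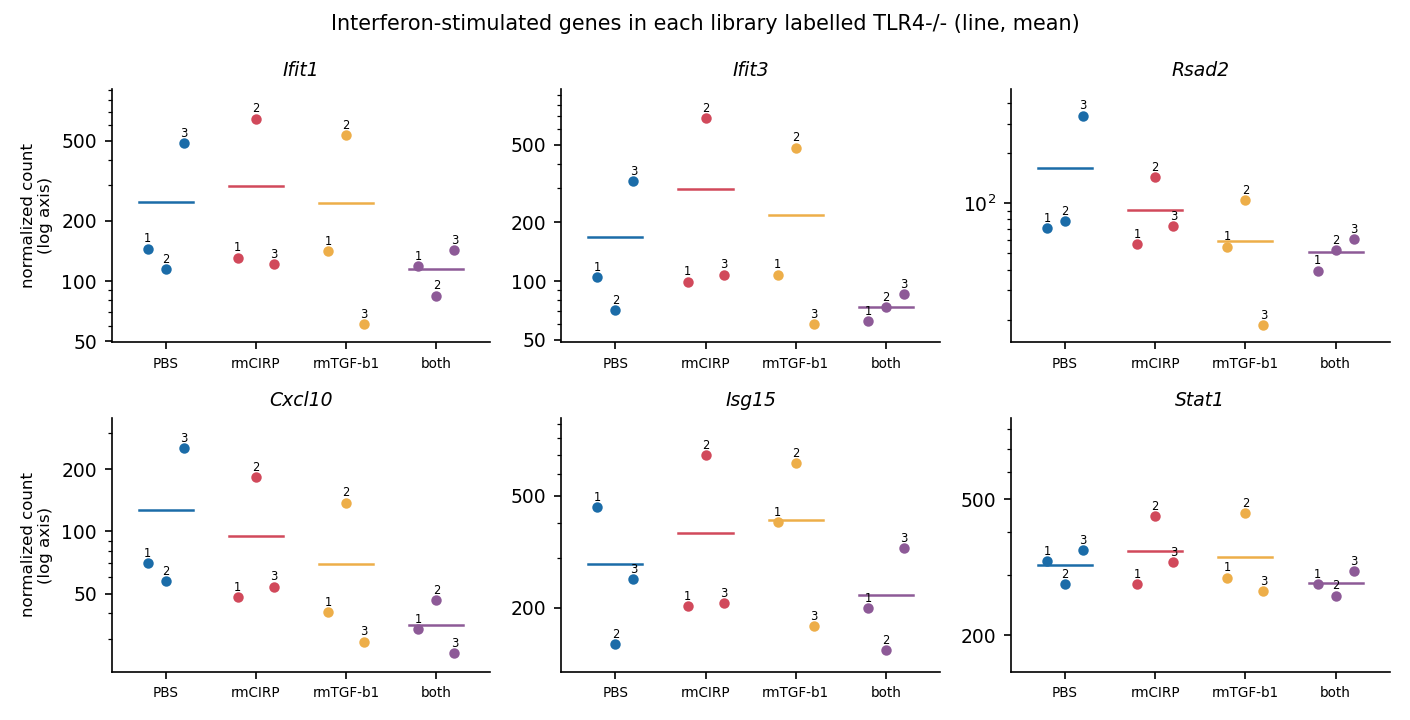
Normalized counts on log axes of 6 interferon-stimulated genes in the 12 libraries labelled TLR4-/-, by treatment; numbers are replicate numbers and lines are means. For Ifit1, Ifit3, Rsad2 and Cxcl10 the PBS library 3, the rmCIRP library 2 and the rmTGF-b1 library 2 lie above the other libraries of their treatment, and Ifit1 reaches 645 in the rmCIRP library 2.

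Of the 30 interferon-stimulated genes 0 passed the threshold and 0 had an unadjusted p under 0.05, with a median log2 fold change of 0.14. All 30 rose in WT cells, with a median of 5.08, and all 30 differed between the genotypes, against 19.8% and 31.4% of all genes. Of the 23 well counted ones, 13 had an interval within 2-fold, and the bounds reached from 0.282-fold for Rsad2 to 4.72-fold for Ifit3. The median log2 fold change was 0.27 without the PBS library 3, -0.29 without the rmCIRP library 2 and -0.15 without both, with 0 genes past the threshold each time. The value of Ifit1 was 0.28 ± 0.60 with all libraries, 1.22 ± 0.73 without the PBS library 3, -0.99 ± 0.67 without the rmCIRP library 2 and -0.047 ± 0.68 without both. For Ifit3 it was 0.84 ± 0.67, 1.77 ± 0.87, -0.70 ± 0.71 and 0.23 ± 0.77 in the same order. Rsad2 had -0.82 ± 0.48, 0.30 ± 0.44, -1.33 ± 0.59 and -0.20 ± 0.47, and Cxcl10 had -0.40 ± 0.55, 0.59 ± 0.62, -1.32 ± 0.67 and -0.32 ± 0.64. Single libraries thus set the direction of these 4 genes.

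In WT cells the log2 fold changes were 7.05 ± 0.70 for Ifit1, 7.38 ± 0.81 for Ifit3, 7.12 ± 0.59 for Rsad2 and 7.89 ± 0.65 for Cxcl10. The genotypes differed by -6.77, -6.54, -7.94 and -8.29 in the same order. Irf1, a transcription factor of the interferon response, had the narrowest interval of the list, 0.936-fold to 1.21-fold. The fit with no filter on low counts called 14 inflammatory genes, 10 higher and 4 lower, among them these 4. It called 149 of the 34285 genes it tested (0.435%), 37 higher (0.108%) and 112 lower (0.327%). That fit gave every gene 548560 degrees of freedom, so the spread of a single gene did not enter its test. The other alternatives called 0 inflammatory genes.

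Of the 30 inflammatory effector genes, which encode enzymes, proteases, adhesion molecules and acute phase proteins, 26 were well counted. The threshold was passed by 0 of the 30 here and by 27 in WT cells, all of them rises. Of all genes 19.8% rose in WT cells. The median log2 fold change was 0, against 1.79 in WT cells, and 25 of the 26 intervals lay within 2-fold and 20 within 1.5-fold. Mmp13, a collagenase, had 6044, 6593 and 6326 normalized counts with PBS and 6851, 7227 and 7358 with rmCIRP. All its rmCIRP libraries lay above the PBS libraries, and the value of 0.18 ± 0.22 did not pass the threshold (edgeR adjusted p = 0.947), against a rise of 3.12 ± 0.22 in WT cells. The edgeR fit of only the 6 libraries did not call Mmp13 (adjusted p = 0.114), and the fit with no filter on low counts did. With rmTGF-β1 present its value was 0.74 ± 0.22, in the same direction and short of the threshold (edgeR adjusted p = 0.101). Serpina3n, a protease inhibitor, had the most negative value, -0.28 ± 0.36, and the 1 interval beyond 2-fold, 0.492-fold to 1.38-fold. Pla2g4a, the phospholipase that frees arachidonic acid, had the narrowest interval, 0.946-fold to 1.08-fold. Ptgs2, which encodes cyclooxygenase 2, had 89030 to 99890 normalized counts in the 6 libraries and an interval of 0.858-fold to 1.23-fold.

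Of 13 other Toll-like receptors and partners 11 were tested. The 9 well counted ones all had intervals within 1.5-fold, as did 11147 of all 11325 well counted genes. Here 0 of the 11 passed the threshold, and in WT cells 5 rose and 3 fell, against 19.8% and 24.1% of all genes. Tlr6 had the largest positive value, 0.079 ± 0.094, and Ly86, which encodes the MD2 homologue MD1, the most negative, -0.13 ± 0.10. Tlr13, a sensor of bacterial ribosomal RNA, had the narrowest interval, 0.892-fold to 1.11-fold, and fell by 0.99 on the log2 scale in WT cells. For Cirbp, Rbm3, Trem1, Tyrobp, Il6ra and Il6st, genes tied to CIRP or to its other receptors, 0 of 6 passed the threshold. All 6 intervals lay between 0.84-fold and 1.12-fold, and 5 of the 6 genes fell in WT cells.

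Of the gene groups outside inflammation, 0 genes passed the threshold. All 28 fibrosis and matrix genes had intervals within 2-fold and 26 within 1.5-fold, as did 11293 and 11147 of all 11325 well counted genes. In WT cells 3 of the 28 rose and 17 fell, against 19.8% and 24.1% of all genes. Sparc, a matrix protein, had 185100 to 208400 normalized counts in the 6 libraries and the narrowest interval, 0.946-fold to 1.07-fold. Postn, which encodes periostin, had the largest positive value, 0.14 ± 0.070. Tagln, an actin-binding protein of contractile cells, had 867.4, 979.2 and 1013 normalized counts with PBS and 747.2, 679.3 and 690.1 with rmCIRP. All 3 rmCIRP libraries lay below the PBS libraries, at -0.43 ± 0.11 (edgeR adjusted p = 0.339). DESeq2 (adjusted p = 0.0976), the edgeR fit of only the 6 libraries (adjusted p = 0.0158) and the fit with no filter on low counts each called Tagln. Smad7, the inhibitory SMAD, was lower in all 3 rmCIRP libraries too, at -0.13 ± 0.048 (edgeR adjusted p = 0.548).

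Among 21 immediate early genes, 5 had all rmCIRP libraries below (7.91% of all genes) and 1 all above the PBS libraries (5.81%), and the median log2 fold change was -0.073. Jund, a subunit of AP-1, had 666.8, 674 and 678.9 normalized counts with PBS and 599.7, 487.2 and 547.6 with rmCIRP, at -0.30 ± 0.081 (edgeR adjusted p = 0.339). Klf2 had -0.19 ± 0.076, Egr3 the most negative value, -0.46 ± 0.27, and Myc the largest positive one, 0.14 ± 0.073. All 26 cell cycle genes had intervals within 1.5-fold, as did 11147 of all 11325 well counted genes. In WT cells 24 of the 26 fell and 1 rose, against 24.1% and 19.8% of all genes. Here 5 of the 26 had all rmCIRP libraries below and 0 all above the PBS libraries, with a median log2 fold change of -0.094. Cdkn1a, an inhibitor of the cycle, had -0.11 ± 0.036 and Pcna, the replication clamp, -0.10 ± 0.041, both at an unadjusted p under 0.05.

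All well counted genes of the lists for endoplasmic reticulum stress (20), sterol synthesis (23), hypoxia and glycolysis (21), NRF2 targets (14) and reference genes (12) also had intervals within 1.5-fold. So did 11147 of all 11325 well counted genes. At an unadjusted p under 0.05 these lists held the glycolysis and glucose genes Pfkp at 0.11 ± 0.034 and Pdk1 at 0.093 ± 0.040, the NRF2 target G6pdx at -0.085 ± 0.040, and the reference genes B2m at -0.11 ± 0.042 and Tbp at -0.10 ± 0.046. The reference genes as a list were bounded from 0.87-fold to 1.11-fold.

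The genes with the lowest p, among genes averaging 50 or more normalized counts, were in none of the inflammatory lists, and 0 of the 20 passed the threshold. The 10 higher ones were Malat1, Bc1, Brf1, Cdk11b, Upf3b, Pin4, Gm14410, Odr4, Eif4g3 and Polr2j. Malat1, a nuclear long noncoding RNA, had 14450, 15770 and 15930 normalized counts with PBS and 26180, 24670 and 17250 with rmCIRP. Bc1, a short RNA made by RNA polymerase III, had 243, 160 and 181.2 with PBS and 689.2, 1701 and 746.1 with rmCIRP. Both were higher in all 3 rmCIRP libraries, by 0.57 ± 0.11 for Malat1 and 2.43 ± 0.49 for Bc1 (edgeR adjusted p = 0.104 for each). The other 8 had log2 fold changes between 0.13 for Eif4g3 and 0.39 for Gm14410.

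Of the lower ones 9 are named here, Ube2s, Gm10123, Scand1, Ssbp4, Ifitm2, Akr7a5, Fam174a, Dpm3 and Rps27l. Scand1 had 427.8, 435.5 and 455.9 normalized counts with PBS and 256.6, 138.3 and 239.9 with rmCIRP, at -1.05 ± 0.21 (edgeR adjusted p = 0.104). Its rmCIRP libraries all lay below the PBS libraries. The other 8 had values between -0.48 for Gm10123, annotated as a pseudogene whose reads can be shared with its parent gene, and -0.17 for Rps27l.

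The addition of rmCIRP to rmTGF-β1 in cells labelled TLR4-/- shares no library with this comparison. There, 1 of the 10 higher genes had a positive and 1 of the 10 lower genes a negative value. Bc1 had 806.6, 1206 and 392.6 normalized counts under rmTGF-β1 alone and 169.6, 172.7 and 217.4 under both, so it was lower in all 3 libraries with rmCIRP. This opposite change of -2.10 ± 0.50 passed the threshold (edgeR adjusted p = 0.0726). WT libraries had 768.1 to 1309 normalized counts of Bc1 with PBS and 469 to 1171 with rmCIRP, above the PBS libraries labelled TLR4-/-. In WT cells 2 of the 10 higher genes had a positive and 4 of the 10 lower genes a negative value.

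**Figure D5:**
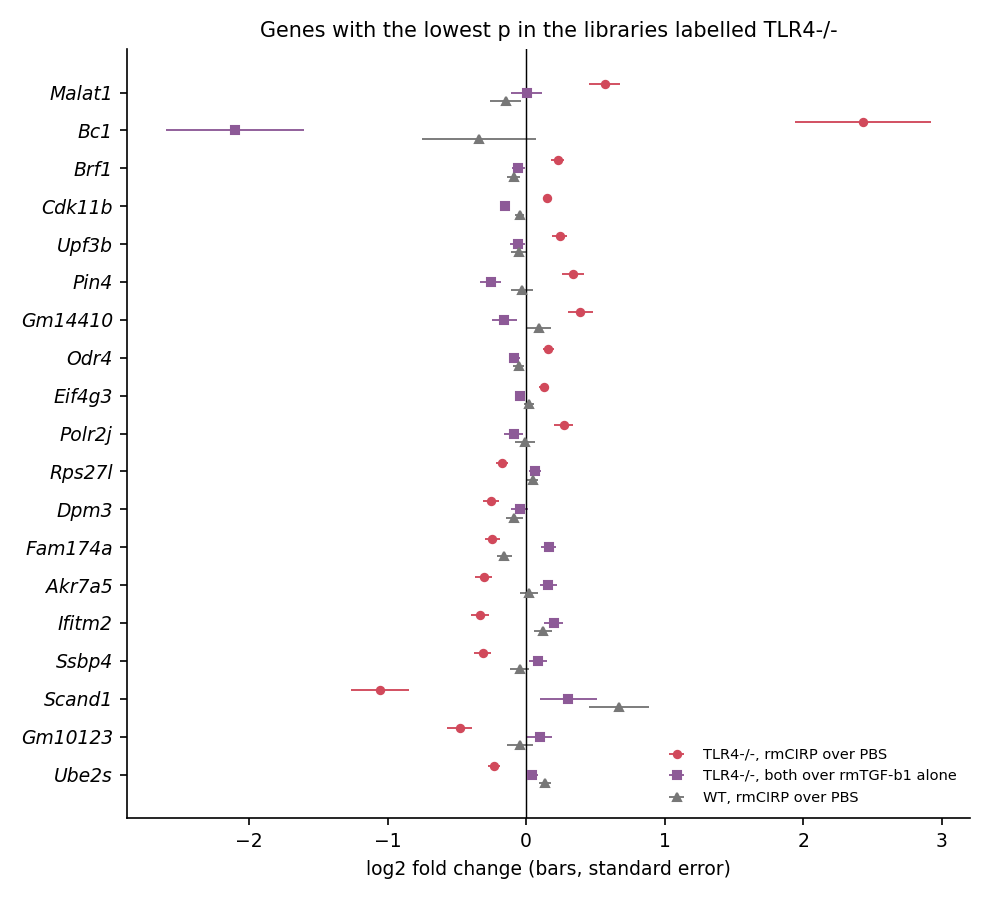
Log2 fold changes with standard errors for 19 genes, 10 higher and 9 lower, with the lowest p for rmCIRP over PBS in the libraries labelled TLR4-/-, beside the change by rmCIRP in the presence of rmTGF-b1 and in WT cells. The genes were chosen by their p in the libraries labelled TLR4-/-, and under rmTGF-b1 the sign is the same in 1 of the 10 higher and 1 of the 9 lower genes.

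DESeq2, the fit of only the 6 libraries and the unfiltered fit shared 14 called genes, and 39 were called by at least 2 of them. Of the 39, 5 were higher, Bc1, Malat1, Pin4, Upf3b and the mitochondrial tRNA gene mt-Tp, and 34 were lower. Cebpb, which encodes a transcription factor of inflammatory genes, was among the lower ones, with 1886, 1756 and 1683 normalized counts with PBS and 1217, 1055 and 1410 with rmCIRP. Its rmCIRP libraries lay below the PBS libraries, but the value of -0.53 ± 0.15 did not pass the threshold (edgeR adjusted p = 0.384). Cebpb rose by 0.86 ± 0.15 in WT cells, and the genotypes differed by -1.39 ± 0.21 (edgeR adjusted p = 3.78e-05). With rmTGF-β1 present, the value in cells labelled TLR4-/- had the sign of WT cells, 0.50 ± 0.15, and did not pass the threshold (edgeR adjusted p = 0.101). Gm23935, also lower, had 4035, 5972 and 4232 with PBS and 1377, 869.6 and 2102 with rmCIRP. The counts of Gm23935, Gm24187, Mir6236, Lars2 and the antisense gene Gm15564 are uncertain, since reads of such loci can be shared with other copies or an overlapping gene.

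GC content and transcript length moved with these small values. Genes higher at an unadjusted p under 0.05 had a median GC content of 47.3% and length of 3278.5 bases, and those lower had 53.1% and 2236 bases, against 49.4% and 3147 for all genes tested. With both as offsets, 1042 genes had an unadjusted p under 0.05 and 0 passed the threshold. Reads on no gene made up 3.52%, 3.6% and 3.82% of the lines with PBS and 4.27%, 3.96% and 3.5% with rmCIRP, and their part in the values was not tested.

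With rmTGF-β1 present, rmCIRP changed 437 genes (2.69%; 17.9% had an unadjusted p under 0.05) in cells labelled TLR4-/-, 254 higher and 183 lower, and 810 when replicate numbers entered the fit as a block. With GC content and length as offsets there were 96 higher and 162 lower genes. The count rested on single libraries. It was 0 without the rmTGF-β1 library 1, 79 without library 2 and 2141 without library 3, and without libraries 1, 2 or 3 given both it was 2674, 738 or 1. Fits of only the libraries compared, or of only this genotype, called 0. Pairs of libraries given both differed by a median of 0.0665 to 0.139, against at most 0.0775 within PBS or rmCIRP.

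Of the 165 inflammatory genes 12 were called with rmTGF-β1 present, 11 higher and Csf1 lower, against 2.69% of all genes. The median log2 fold change over the 165 was 0.049. With the block 24 inflammatory genes were called, among 810 called genes. The inflammatory count was 0 without the rmTGF-β1 library 1 or 2 or without the library 3 given both. It was 50 of 2141 called genes without the rmTGF-β1 library 3. Without the libraries 1 and 2 given both it was 56 of 2674 and 26 of 738. DESeq2 called 29 of these genes, among 902 called genes, and the fit with no filter on low counts 70 among 1580. The count was 2 of 328 called genes with limma-voom, 2 of 308 with a robust prior and 5 of 258 with GC and length offsets. Fits of only the libraries compared, or of only this genotype, gave 0. RLE scaling gave 12 of 412, the newer quasi-likelihood method of edgeR 13 of 456 and the filter at a mean count of 10 gave 17 of 531. Cxcl1 had 81.42, 131.8 and 158.6 normalized counts under rmTGF-β1 alone and 165.7, 260.8 and 1334 under both, at 2.21 ± 0.56 (edgeR adjusted p = 0.0726). The library 3 given both was far above the others. Il6 had 7668, 9106 and 9578 under rmTGF-β1 alone and 8065, 12230 and 23010 under both, with the same library highest, and did not pass the threshold (edgeR adjusted p = 0.125). Whether the response with rmTGF-β1 differed from that without it was not tested.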

How the data were processed

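Total RNA of pulmonary fibroblasts was sequenced from stranded libraries. The authors deposited unnormalized read counts by gene symbol, which ht-seq made after STAR alignment. The submitters' notes also name FastQC and, with no role given, the build NCBIM37. The strand option of the counting is not given in the sources used here. Each file held 55291 gene names and 5 tally lines, which were left out of totals and tests (reads on no gene, 3.48% to 4.68% of the lines). Libraries were grouped by their labels, none was left out, and they held 29853346 to 39664606 counted reads. Intervals cover the spread between libraries only.

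Counts were analysed in R 4.3.3 with edgeR 4.0.16 (filterByExpr, TMM, quasi-likelihood F-test) in 1 fit of all 24 libraries with a mean for each of 8 conditions, Benjamini-Hochberg adjustment over 16258 genes and a threshold of 0.1. Spread in the other conditions therefore enters each interval, with 16 residual and, for a well counted gene, 21.7 total degrees of freedom. Normalized counts use the size factors of DESeq2 1.42.0. Comparisons and lists were chosen with earlier results of these data known. Named genes were Tnf, Il1b, Il6 and Ly96, and from each list the well counted members with the largest positive and negative value, the narrowest interval or an unadjusted p under 0.05. Further ones were the 10 lowest p-values of each direction at a mean of 50 normalized counts, genes called by at least 2 of DESeq2, the fit of the 6 libraries and the unfiltered fit, and the 5 well counted inflammatory genes with the largest rise in WT cells. Other genes were named after their values were seen. A single gene that the rule picks is not reported here.

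Same-numbered libraries of rmTGF-β1 and rmCIRP+rmTGF-β1 deviated together (correlations 0.494, 0.126 and 0.588), so the count with the replicate block is given there. The pairing comes from these correlations and not from the labels. GC content and length were taken by symbol from GENCODE annotation, for 15977 of 16258 genes. Alternatives were DESeq2, limma-voom (limma 3.58.1), RLE, other filters, other sets of libraries, a robust prior, the block and leaving out each library. Scripts were tested on simulated data.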

Additional observations from a re-analysis of the deposited data

Results flagged for a closer look

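The response to rmCIRP differed between the genotypes, by the test of the difference itself (edgeR's quasi-likelihood interaction contrast, adjusted p under 0.1), for 5113 of 16258 genes. Among the genes named in the report, the TLR4-/- minus WT difference on the log2 scale was -4.93 for Tnf, -10.23 for Il1b, -1.99 for Il6, -7.25 for Il1a, -4.15 for Cxcl1 and -6.51 for Cxcl2. The 4 interferon-stimulated genes differed by -6.77 for Ifit1, -6.54 for Ifit3, -7.94 for Rsad2 and -8.29 for Cxcl10. The NF-κB feedback genes differed by -1.61 for Nfkbia and -2.41 for Tnfaip3. Ticam1 differed by -0.23, Ly96 by -0.28 and Cebpb by -1.39. Cebpb had opposite signs in the genotypes, but its value in the libraries labelled TLR4-/- did not pass the threshold. With rmTGF-β1 present, rmCIRP gave Cebpb 0.50 ± 0.15 in cells labelled TLR4-/-, the sign of WT cells. The macrophage marker sum also differed between the genotypes, as given in the report, and its part in these differences was not tested.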

How the results depend on the processing

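In the libraries labelled TLR4-/-, the count of 0 called genes held with limma-voom, RLE scaling, the filter at a mean count of 10, the fit of the 12 libraries of the genotype and, chosen after seeing the data, the newer quasi-likelihood method, GC and length offsets and the fit without the PBS library 3 and the rmCIRP library 2. DESeq2 gave 33 (7 higher, 26 lower), no filter 149 (37 and 112), only the 6 libraries 29 (4 and 25), a robust prior 1 and the replicate block 1, and leaving out 1 library gave 0 to 9. The older quasi-likelihood method, planned as an alternative, is the package default and equals the main result. The median margin of the well counted inflammatory genes was 0.246 and fell to 0.12 with no filter and 0.14 with only the 6 libraries, while 116 to 132 of the 133 intervals lay within 2-fold in every setting. Counts for WT cells and for the difference between the genotypes stayed within 1.5 times. With rmTGF-β1 present, the count of 437 became 902 with DESeq2, 1580 with no filter, 0 with only its libraries or those of the genotype, 810 with the block, 258 with GC and length offsets and 0 to 2674 without 1 library. Same-numbered PBS and rmCIRP libraries did not deviate together (correlations of -0.2, -0.15 and -0.179 in the libraries labelled TLR4-/-, and -0.117, -0.224 and -0.1 in WT cells), and each correlated best with another number, so these share only a number; the block called 7155 genes in WT cells and 5201 for the difference. Of 57 genes with a value in the report, 38 kept their sign in every setting. With DESeq2 the sign turned for Tlr4 (-0.002), Nfkbia (-0.003) and Myd88 (-0.006). With RLE scaling the sign turned for Tlr4 (0), Nfkbia (-0.002) and Myd88 (-0.004). With no filter the sign turned for Tlr4 (-0.002), Nfkbia (-0.003) and Myd88 (-0.006). Without the PBS library 3 and the rmCIRP library 2 the sign turned for Cxcl1 (-0.19), Il6 (-0.006), Tnf (0.006), Cxcl12 (-0.007), Rela (0.022), Ifit1 (-0.047), Pla2g4a (-0.035), Ptgs2 (-0.029), Tlr13 (0.038) and Sparc (-0.048). With the filter at a mean count of 10 the sign turned for Nfkbia (0) and Myd88 (-0.003). With only the 6 libraries the sign turned for Chuk (0.001) and Rela (0.001). With the 12 libraries of the genotype the sign turned for Chuk (0.001) and Rela (0.001). With limma-voom the sign turned for Myd88 (0). With GC and length offsets the sign turned for Rela (0.041). Leaving out 1 library at a time turned the sign of 17 genes, with log2 fold changes of -0.032 to 0.031 for Tlr4, -0.087 to 0.36 for Cxcl1, -0.027 to 0.031 for Nfkbia, -0.075 to 0.041 for Tnfaip3, -0.015 to 0.070 for Ly96, -0.019 to 0.010 for Chuk, -0.016 to 0.016 for Myd88, -0.065 to 0.019 for Tnf, -0.021 to 0.027 for Rela, -0.99 to 1.22 for Ifit1, -0.70 to 1.77 for Ifit3, -1.33 to 0.30 for Rsad2, -1.32 to 0.59 for Cxcl10, -0.025 to 0.039 for Pla2g4a, -0.013 to 0.075 for Ptgs2, -0.050 to 0.026 for Tlr13 and -0.044 to 0.041 for Sparc. The cause was not tested. The depth limits genes under 100 normalized counts most, and 3 libraries a group limit all of them.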

Other observations

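Genes for ribosomal proteins and for mitochondria were examined after the values of the report were seen. Of 82 tested cytosolic ribosomal protein genes, 18 were lower and 4 higher at an unadjusted p under 0.05 (3.54% and 3.44% of all genes tested), with a median log2 fold change of -0.034. Nuclear-encoded oxidative phosphorylation genes gave 14 lower and 6 higher of 89, with a median of -0.013, and mitochondrial ribosomal protein genes 10 lower and 1 higher of 77, with a median of -0.029. Genes of the mitochondrial genome gave 1 lower and 2 higher of 10, with a median of 0.049, and Snhg genes, which host small nucleolar RNAs, 1 lower and 0 higher of 15, with a median of 0.01. In these 5 lists the medians with rmTGF-β1 present were -0.044, -0.043, -0.028, 0.071 and -0.023, in the order given. The medians in WT cells were 0.036, -0.031, -0.006, 0.055 and 0.05, so cytosolic ribosomal protein genes went the other way there. Among the marker lists, Fbln1 of the fibroblast list at -0.21 and Rgs5 of the mural list at -0.46 had an unadjusted p under 0.05, and 0 markers passed the threshold.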
